A study of Medicago truncatula with 21 samples.

Results

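Mature seeds of 2 Medicago truncatula lines that carry Tnt1 insertions in ABI4 were compared with each other, abi4-1 minus abi4-2. An identifier was included when it reached at least 10 normalized counts in at least 3 of the 6 libraries, which kept 18920 of the 44473 identifiers deposited. The abi4-1 seeds came from insertion line NF19813 (genotype R108-abi4-1), the abi4-2 seeds from insertion line NF2525 (genotype R108-abi4-2), and wild-type R108 seeds gave a level beside which both can be read. Each group had 3 libraries of mature seeds, 9 of the 21 libraries of the series. The plants shared 1 growth protocol and received no treatment that the labels name. Each allele was represented by 1 insertion line, so a difference that belongs to the ABI4 allele and a difference that lies elsewhere in the line cannot be told apart. The labels do not say whether the lines had been backcrossed. The other 12 libraries, R108 and abi4-1 at 13 and 24 days after pollination (DAP), were used where the text says so.

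ABI4 is known from Arabidopsis as an AP2/ERF transcription factor, with roles in the responses to abscisic acid and to sugars, and it has been linked to signals between the organelles and the nucleus. Tnt1 is a tobacco retrotransposon that inserts at many sites of a Medicago genome, which makes it a tool for finding mutants, and an allele that comes from such a line can sit among other insertions. A mature seed is dry and stores messenger RNA laid down during development. Its plastids and mitochondria hold genomes of their own, which in plants encode, among others, parts of the photosynthetic apparatus and of the respiratory chain.

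The 6 libraries had totals of 19162030 to 19978616 normalized counts in abi4-1 and 19292972 to 19568367 in abi4-2, and the R108 libraries 19779847 to 20345780. Across identifiers the log2 levels of libraries correlated at 0.983 to 0.986 within abi4-1 and at 0.986 to 0.990 within abi4-2. Between the mutant lines the correlations were 0.974 to 0.981, and with R108 they were 0.943 to 0.959 for abi4-1 and 0.945 to 0.954 for abi4-2. The deposited identifiers are not paired with gene names. The ABI4 transcript was therefore not examined against the labels, seed marker genes could not be looked up, and at most 2 identifiers per direction are named.

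The lines differed in many transcripts by small amounts. In limma with Benjamini-Hochberg adjustment over the 18920 identifiers, 1526 were higher in abi4-1 (8.07%) and 1395 were lower (7.37%) at an adjusted p under 0.05, together 15.4%. At an unadjusted p under 0.05 there were 5700 (30.1%). The median size of a called difference was 0.45 on the log2 scale, or 1.37-fold, and the middle 50% of the calls lay between 0.32 and 0.73. A called difference was under 2-fold in 2509 identifiers (85.9%), between 2- and 4-fold in 323 and at least 4-fold in 89. Every abi4-1 library lay above every abi4-2 library in 3336 identifiers (17.6%) and below in 3208 (17%). The median over all identifiers tested was -0.01. The counts moved by over 1.5 times without the intensity trend of the limma fit, to 633 higher and 518 lower, and without single libraries. Without abi4-1 replicate 1 there were 994 higher and 856 lower, and lower calls numbered 722 without abi4-2 replicate 1 and 859 without abi4-2 replicate 2.

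The share of identifiers called depended on the level. Among identifiers with a mean under 30 normalized counts 2.96% were called higher in abi4-1 and 2.49% lower, with a median size of 1.54 for the called ones. Among the 241 identifiers at 10000 or more, 37 were higher (15.4%) and 25 lower (10.4%), with a median size of 0.31. The 20 most abundant transcripts of mature seeds held 9.12 ± 0.159% of the library total in abi4-1, 9.62 ± 0.188% in abi4-2 and 10.1 ± 0.101% in R108 (SD, n = 3 each). The abi4-1 and abi4-2 libraries did not overlap in this share (two-sided exact permutation p = 0.1, the smallest that 3 against 3 allows). Of these 20 transcripts 3 were called higher and 2 lower in abi4-1. The clearest of the higher ones, on chromosome 1, stood at 72819, 71915 and 68635 normalized counts in abi4-1, against 49090.2, 47332 and 46131 in abi4-2, with R108 at 89211, 82885 and 82281. All abi4-1 libraries lay above all abi4-2 libraries, and the R108 libraries lay above both lines (log2 difference 0.58 ± 0.08, SE, limma adjusted p = 0.000722).

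**Figure D1:**
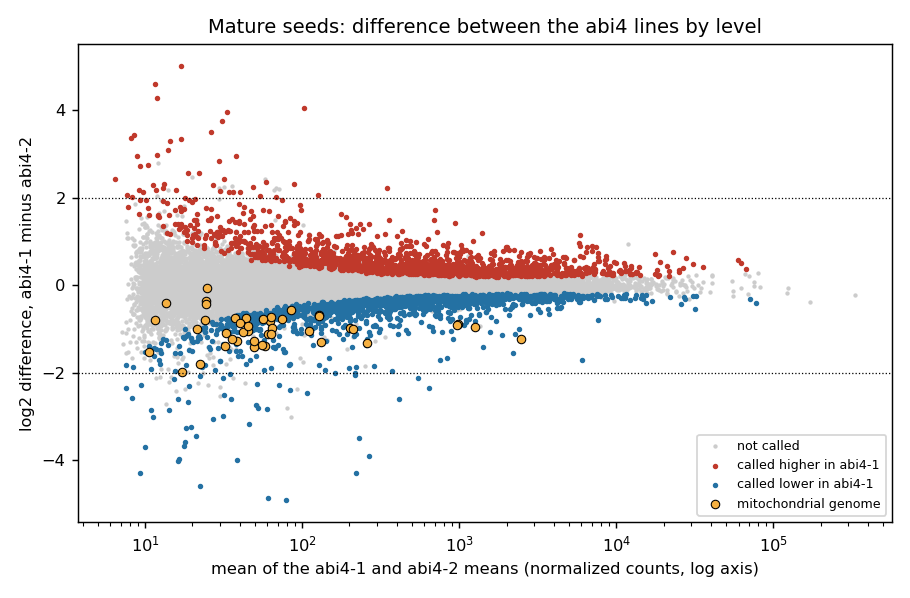
The log2 difference abi4-1 minus abi4-2 (vertical axis) is plotted against the mean of the line means in normalized counts (horizontal log axis), 1 point per identifier of the 18920 tested. Red and blue points are the 1526 and 1395 identifiers called higher and lower in abi4-1, dotted lines mark 4-fold, and the 43 mitochondrial transcripts (orange) all lie below 0.

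Calls were spread over the nuclear chromosomes, from 12.7% of the identifiers tested on chromosome 6 to 16.3% on chromosome 2 and on chromosome 7. Of the 46 identifiers at least 4-fold lower in abi4-1, 14 were on chromosome 7 (30.4%), which held 12.3% of all identifiers tested. Of the 43 at least 4-fold higher, 12 were on chromosome 4 (27.9%) and 9 on chromosome 2 (20.9%), which held 16.6% and 11.5% of those tested.

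The set of at least 4-fold differences, 43 higher (0.227% of those tested) and 46 lower (0.243%), consisted largely of transcripts at low levels. The mean of the line with more transcript reached 100 normalized counts in 6 of the 43 and in 14 of the 46, and its median was 32.1 and 52.4. At least 1 of the 6 libraries was listed at 0 in 10 of the 43 and in 16 of the 46. The groups did not overlap in 42 of each. Among the 43, abi4-1 replicate 2 was the highest abi4-1 library in 28 (65.1%), against 37.1% of all identifiers tested. Without that library 29 were called at least 4-fold higher, and its part in the set was otherwise not tested.

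Several of these transcripts differed by far more than the spread of the libraries. A transcript on chromosome 5 stood at 16.9, 17.6 and 28.7 normalized counts in abi4-1, against 436, 415 and 414 in abi4-2, with R108 at 11.4, 24.8 and 16.5. The abi4-1 and R108 libraries overlapped, and every abi4-2 library was far above them (log2 difference -4.30 ± 0.19, SE, limma adjusted p = 3.9e-07). At 13 and 24 DAP this transcript had at most 8.57 normalized counts in any abi4-1 or R108 library. A transcript on chromosome 7 stood at 23.9, 33.4 and 41.8 in abi4-1, against 451, 495 and 544 in abi4-2 and 25.9, 21.0 and 18.2 in R108 (-3.90 ± 0.18). One on chromosome 3 stood at 51.9, 30.4 and 30.8 in abi4-1, against 447, 390 and 423 in abi4-2 and 38.1, 30.3 and 33.2 in R108 (-3.49 ± 0.19, limma adjusted p = 1.5e-06). In all 3 of these transcripts the abi4-1 libraries overlapped those of R108, and all abi4-2 libraries lay above both.

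The opposite arrangement was also found. A transcript on chromosome 7 stood at 226, 157 and 200 normalized counts in abi4-1, against 13.0, 9.79 and 9.90 in abi4-2 and 13.3, 13.1 and 15.0 in R108. Here abi4-1 alone was high, and the abi4-2 and R108 libraries lay close together (4.03 ± 0.21, limma adjusted p = 1.2e-06). In abi4-1 it had stood at 41.7, 26.1 and 23.4 at 13 DAP, against 19.4, 35.7 and 27.0 in R108, values that overlapped. On chromosome 1 a transcript stood at 49.8, 65.5 and 60.1 in abi4-1, against 1.98, 4.90 and 3.97 in abi4-2 and 0, 3.01 and 0 in R108 (3.74 ± 0.35). It was above R108 in abi4-1 at both earlier stages, at 37.8, 91.3 and 84.5 in abi4-1 against 11.1, 11.9 and 18.4 in R108 at 13 DAP, and at 31.8, 14.2 and 28.2 in abi4-1 against 3.48, 4.27 and 2.37 in R108 at 24 DAP.

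In other transcripts 1 line lay below the other and R108. On chromosome 7 a transcript stood at 11, 20.5 and 12.2 normalized counts in abi4-1, against 115, 95.6 and 105 in abi4-2 and 111, 105 and 102 in R108, which overlapped abi4-2 (-2.82 ± 0.25, limma adjusted p = 5.4e-05). At 24 DAP, in libraries that the comparison of the lines does not use, it was low in abi4-1 as well, at 4.75, 6.74 and 3.20, against 53.4, 42.6 and 35.5 in R108. On chromosome 4 a transcript stood at 137, 155 and 155 in abi4-1, against 28.9, 25.5 and 33.7 in abi4-2 and 195, 171 and 173 in R108 (2.31 ± 0.16), so abi4-2 was the low line there.

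Over all 18920 identifiers tested, both lines stood apart from R108 on the same side in 7154. R108 was below all 6 mutant libraries in 3614 (19.1%). In the 4-fold set standing apart was not more frequent, at 11 of the 43 and 11 of the 46. R108 lay below all 6 mutant libraries in 9 and 11 of these. One on chromosome 4 stood at 453, 727 and 538 normalized counts in abi4-1, against 131, 129 and 102 in abi4-2 and 0, 2.01 and 0 in R108 (2.22 ± 0.16). It was present in abi4-1 at 24 DAP, at 28.9, 14.0 and 19.6, and listed at 0 in each R108 library of that stage. One on chromosome 1 stood at 444, 351 and 36.6 in abi4-1, against 1069, 1478 and 483 in abi4-2 and 2.06, 4.97 and 7.14 in R108. The mutant libraries spread widely in this transcript, abi4-1 replicate 3 lay far below the other abi4-1 libraries, and the call was close to the threshold (-2.34 ± 0.73, limma adjusted p = 0.0494). The smallest standard error among the 89 was that of a transcript on chromosome 7, at 216, 199 and 199 in abi4-1, against 882, 879.8 and 913 in abi4-2 and 571, 499.5 and 552 in R108. The 3 groups did not overlap, with R108 between the lines (-2.12 ± 0.08, limma adjusted p = 1.0e-07).

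**Figure D2:**
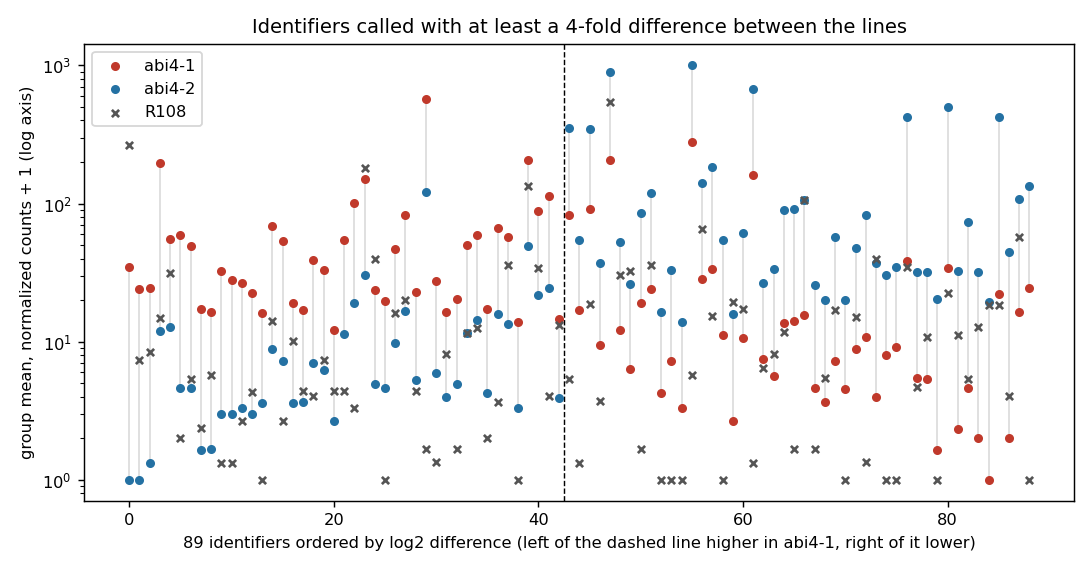
Group means of normalized counts plus 1 (vertical log axis, n = 3 libraries each) for the 89 identifiers called with at least a 4-fold difference, ordered by their log2 difference, with red points for abi4-1, blue points for abi4-2 and crosses for R108. Left of the dashed line are 43 identifiers higher in abi4-1 and right of it 46 lower ones. In 21 of each the R108 libraries overlap those of the lower mutant line alone. With at least 10 in all 6 libraries this held in 1 of 7 and 3 of 12.

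Over all 89, the place of R108 was read from which libraries it overlapped, and the filter bears on that reading. All libraries of the line with less transcript were under 10 in 28 of the 43 and 15 of the 46, which passed through the other line alone, so that a low R108 lies near the lower line by construction. Among the 43 identifiers higher in abi4-1 the R108 libraries overlapped those of abi4-2 alone in 21 (48.8%) and those of abi4-1 alone in 3 (6.98%). Among the 46 lower ones they overlapped those of abi4-1 alone in 21 (45.7%) and those of abi4-2 alone in 5 (10.9%). In 18 of the 43 (41.9%) and 19 of the 46 (41.3%) they overlapped neither line. This also held in 48.0% of all higher calls, 44.4% of all lower calls and 37.9% of the identifiers not called. It was thus not particular to the 4-fold set. With at least 10 in all 6 libraries, 7 higher and 12 lower identifiers were left, and R108 overlapped the lower line alone in 1 of the 7 and 3 of the 12. With a pseudocount of 5 these overlaps numbered 8 of 17 and 12 of 29, so both sets shrank and the shares moved little. Because of the filter, the counts over the 89 are a description of low transcripts, with no support for a side that R108 takes. The lower identifiers with R108 beside abi4-1 alone numbered 8 of 25 without the intensity trend. They were 13 of 36 without abi4-2 replicate 1 and 11 of 33 without abi4-2 replicate 2. Among the 15999 identifiers not called, R108 overlapped abi4-1 alone in 13.2% and abi4-2 alone in 15%. Over all calls the R108 mean was below both lines in 748 of the 1526 higher identifiers (49.0%), between them in 537 (35.2%) and above both in 241 (15.8%). For the 1395 lower ones it was below both in 399 (28.6%), between them in 539 (38.6%) and above both in 457 (32.8%). For the identifiers not called it was below both in 41.2%, between them in 16.5% and above both in 42.3%. A called difference sets the lines further apart, so a larger share between them follows in part from the call. The R108 libraries overlapped abi4-1 alone in 16.4% of the higher identifiers and abi4-2 alone in 32.8%, and among the lower identifiers abi4-1 alone in 24.3% and abi4-2 alone in 27.6%.

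Libraries of the earlier stages gave a second reading of the abi4-1 line, since they share no library with the comparison of mature seeds. At 24 DAP, 17 of the 43 identifiers (39.5%) were at least 2-fold higher in abi4-1 than in R108 with no overlap and 0 were lower by that rule. Over all identifiers tested the share that was higher was 3.79%. Of the 46 identifiers lower in mature abi4-1, 8 were lower than R108 at 24 DAP (17.4%) and 3 higher, against 1.43% lower over all identifiers. At 13 DAP the rule found 7 of the 43 higher (16.3%) and 0 lower, against 1.44% higher over all, and 2 of the 46 lower and 0 higher, against 0.893% lower over all. Without abi4-1 replicate 2 the 17 of 43 became 11 of 29, and without abi4-2 replicate 2 the 8 of 46 became 5 of 33. With at least 10 in all 6 libraries they were 4 of 7 and 4 of 12. The abi4-2 line was sampled in mature seeds only, so the same reading could not be made for it. The deposited values were scaled separately for each stage, so this reading compares levels only within a stage. The R108 lists described below do compare stages, on a common scale except where values as deposited are named. Levels of single transcripts at 13 and 24 DAP, and the bound of 10 where applied there, are values as deposited. They are not on the scale of the mature libraries.

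Some transcripts were present in 1 mutant line and near absent in the other. At 10 or more normalized counts in each abi4-1 library and under 3 in each abi4-2 library were 9 identifiers (0.0476% of those tested), and 6 showed the reverse (0.0317%). All 15 were also called, against 15.4% of all identifiers tested. The same 6 libraries picked them, so the calls add no support. The R108 libraries were all under 3 in 2 of the 9 and 1 of the 6, and all at 10 or more in 1 of each. At 13 DAP 8 of the 9 reached a mean of 10 in abi4-1 and 6 did in R108. Of the 6 identifiers present in abi4-2, 4 were under 10 in every earlier group sampled. The share of all identifiers tested that reached 10 at the earlier stages was not counted. The abi4-2 line was not sampled there, so these counts of the 9 and the 6 cannot be set against each other. Without abi4-1 replicate 3 or abi4-2 replicate 2 the 9 became 16 and 17, and without abi4-1 replicate 1 the 6 became 10. Leaving out a library removes a condition of the rule, so these counts could only stay or rise.

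The largest log2 differences that met the naming rule were those of 2 identifiers per direction. MtrunA17_Chr4g0016261, on chromosome 4, stood at 20.9, 53.8 and 26.8 normalized counts in abi4-1 and was listed at 0 in each abi4-2 library, with R108 at 223, 343 and 226. R108 was therefore the highest group, abi4-1 lay below it and abi4-2 at 0 (limma adjusted p = 0.000272). At 13 DAP it stood at 59.6, 87.5 and 70.1 in abi4-1, against 55.1, 85.5 and 121 in R108, which overlapped. MtrunA17_Chr1g0175361, on chromosome 1, stood at 21.7, 21.5 and 25.8 in abi4-1 and was listed at 0 in each abi4-2 library, with R108 at 8.18, 11.1 and 0 (limma adjusted p = 0.000458). At 24 DAP its values in abi4-1 were 82.2, 79.8 and 74.8, against 70.9, 72.7 and 85.0 in R108, so it was expressed at that stage in both genotypes sampled. No fold is given for these identifiers, since 1 group is listed at 0 throughout.

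Of the lower identifiers, MtrunA17_Chr4g0013381, on chromosome 4, stood at 70.1, 0 and 0 normalized counts in abi4-1, against 142, 190 and 70.5 in abi4-2, and was listed at 0 in each R108 library. The lowest abi4-2 library was barely above the highest abi4-1 library. The log2 difference was -4.91 ± 1.25 (SE, limma adjusted p = 0.0220), and the call was lost without abi4-1 replicate 2 or 3 and without abi4-2 replicate 1 or 2, at adjusted p from 0.0641 to 0.0755. MtrunA17_Chr1g0203611, on chromosome 1, stood at 0, 46.2 and 0 in abi4-1, against 97.9, 85.8 and 136 in abi4-2, with R108 at 0, 0 and 168. In this transcript 1 R108 library and 1 abi4-1 library had counts and the others none, while every abi4-2 library did (-4.87 ± 1.13, SE, limma adjusted p = 0.0142). Neither was called without the intensity trend in the limma fit, at adjusted p of 0.141 and 0.115. Before maturity neither exceeded 3.76 normalized counts in any library sampled.

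Among the other transcripts present in 1 line, 1 on chromosome 2 was seen in mature abi4-2 alone, at 18.8, 17.6 and 21.8 normalized counts, against 0.997, 0.977 and 0 in abi4-1, and was listed at 0 in every R108 library and at every earlier stage. One on chromosome 7 was listed at 0 in each abi4-1 library and averaged 18.5 ± 0.613 in abi4-2 and 17.6 ± 4.27 in R108 (SD, n = 3 each). Another on chromosome 7 stood at 0.998, 1.94 and 2.04 in mature abi4-1, against 12.9, 13.7 and 17.9 in abi4-2 and 24.8, 9.99 and 20.3 in R108. At 13 DAP it was already far lower in abi4-1 than in R108, with means of 105 in abi4-1 and 1699 in R108 and no overlap. One on chromosome 5, present in abi4-1 alone, averaged 65.7 in abi4-1 and 7.23 in R108 at 13 DAP.

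Transcripts of the mitochondrial genome were lower in abi4-1 than in abi4-2 in most members. Of the 72 mitochondrial identifiers 43 passed the filter on low values, and 31 of these were called lower in abi4-1 and 0 higher, against the 7.37% lower and 8.07% higher of all identifiers tested. The remaining 29 identifiers failed the filter, 6 of them at 0 in all 6 libraries, and the highest value among the 29 was 17.6 normalized counts. A transcript could pass through abi4-2 alone, so the stricter filter bears on the count: with at least 10 in all 6 libraries 37 were left and 30 of them were lower. All 43 log2 differences were below 0, from -1.97 to -0.06 with a median of -0.98, against a median of -0.01 over all identifiers. Every abi4-1 library lay below every abi4-2 library in 36 of the 43, against 17% of all identifiers tested. Without the intensity trend 8 were called lower. The 12 that were not called had smaller levels, with a median mean of 24.5 normalized counts against 60.8 for the called ones, and differences of -0.99 to -0.06.

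The summed mitochondrial transcripts made up 0.0346, 0.0234 and 0.0244% of the library total in abi4-1, against 0.0498, 0.0464 and 0.0758% in abi4-2, with R108 at 0.0121, 0.0116 and 0.0120%. The 3 groups did not overlap, and R108 was the lowest. The means were 0.0275 ± 0.00622% in abi4-1, 0.0574 ± 0.0161% in abi4-2 and 0.0119 ± 0.000233% in R108 (SD, n = 3 each), which put abi4-2 2.09-fold above abi4-1 (two-sided exact permutation test, p = 0.1). In 27 of the 43 transcripts all 6 mutant libraries lay above all R108 libraries, as they did in 19.1% of all identifiers tested. In RNA of seeds, fewer cells or organelles of a kind and less RNA in each cannot be told apart. The libraries were made from enriched mRNA, and how much organelle RNA that step kept was not tested.

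Of this sum, 4 transcripts held 68.0% in abi4-1 and 69.0% in abi4-2. The most abundant stood at 1930.2, 1151 and 1265 normalized counts in abi4-1, against 2815, 2437 and 5239.6 in abi4-2 and 478, 451 and 449 in R108 (log2 difference -1.22 ± 0.25, SE, limma adjusted p = 0.00719). The next was at 1014, 798 and 751 in abi4-1, against 1421, 1384 and 2225 in abi4-2 (-0.95 ± 0.16). Single libraries stood out in both: abi4-2 replicate 3 was the highest abi4-2 library in 37 of the 43 transcripts and abi4-1 replicate 1 the highest abi4-1 library in 34. Without abi4-2 replicate 3, 19 transcripts were called lower and the median was -0.82.

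**Figure D3:**
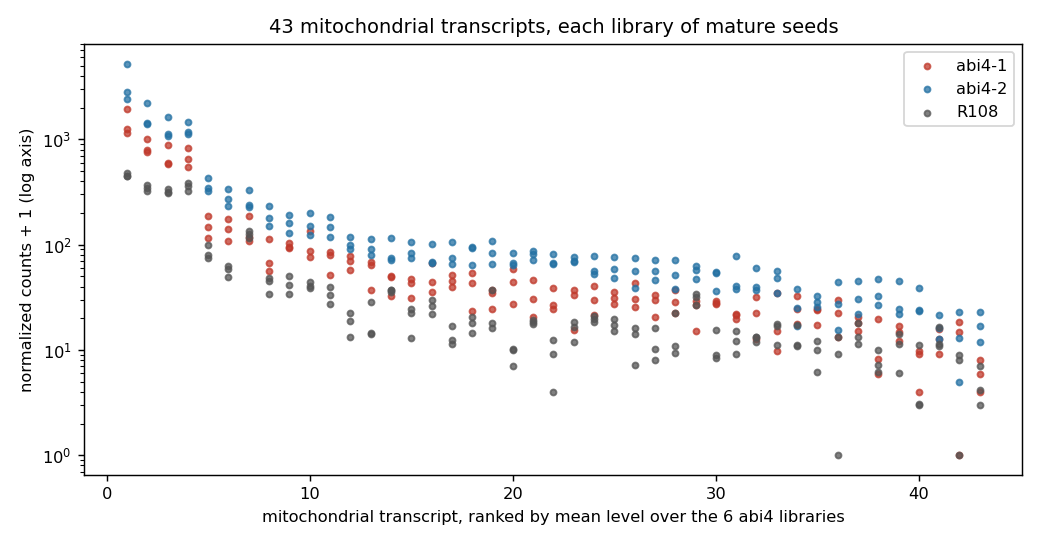
Normalized counts plus 1 (vertical log axis) in each of the 9 libraries of mature seeds for the 43 mitochondrial transcripts tested, ranked by their mean over the 6 mutant libraries (horizontal axis). Each point is 1 library, and in 36 transcripts all red points (abi4-1) lie below all blue points (abi4-2), and in 27 all grey R108 points lie below both.

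Plastid transcripts did not follow the mitochondrial ones. Of the 85 plastid identifiers 79 passed the filter, 0 were called higher in abi4-1 and 4 lower (5.06%), which is under the background of 7.37%, and the median log2 difference was -0.05. Their share of the library was 0.110 ± 0.00894% in abi4-1, 0.114 ± 0.00152% in abi4-2 and 0.496 ± 0.0633% in R108 (SD, n = 3 each). The mutant lines overlapped (two-sided exact permutation p = 0.7), and in 76 of the 79 transcripts all 6 mutant libraries lay below all R108 libraries, as they did in 18.7% of all identifiers tested. The 4 lower ones included 1 at 72.1, 48.2 and 54.9 normalized counts in abi4-1, against 102, 111 and 171 in abi4-2, that was listed at 0 in each R108 library (-1.10 ± 0.21, limma adjusted p = 0.00572). Another stood at 530, 555 and 534 in abi4-1, against 594, 766 and 839.7 in abi4-2, and the next at 142, 122 and 121 in abi4-1, against 145, 238 and 227 in abi4-2. The last, at 0, 10.7 and 0 in abi4-1 and 18.9, 29.3 and 8.94 in abi4-2, overlapped between the lines. None of the 4 was called without the intensity trend in the limma fit, and the calls numbered 2 without abi4-1 replicate 1 and 1 without abi4-1 replicate 3 or abi4-2 replicate 2 or 3.

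The 5 transcripts that lead R108 libraries at 24 DAP stood at different levels in mature seeds of the lines. They made up 0.488, 0.567 and 0.499% of the library total in abi4-1, against 0.778, 0.757 and 0.628% in abi4-2 and 0.242, 0.236 and 0.239% in R108. The groups did not overlap, with R108 lowest, abi4-1 between and abi4-2 highest (two-sided exact permutation test between the mutant lines, p = 0.1). Over all identifiers tested 7.37% were called lower in abi4-1, and 8.75 to 10.4% in the level classes from a mean of 1000 upwards. Of the 5, 4 were called lower in abi4-1, with log2 differences of -0.79, -0.41, -0.79 and -0.55. The third by rank was at 2450.03, 3799 and 2245 normalized counts in abi4-1, against 3494, 3341 and 2478 in abi4-2, where the groups overlapped (-0.16 ± 0.17, limma adjusted p = 0.591). The largest of them in mature seeds, on chromosome 7, stood at 65906, 67776 and 65421 in abi4-1, against 96961, 93125 and 75439.8 in abi4-2 and 35085, 32772 and 33962 in R108 (-0.41 ± 0.10, limma adjusted p = 0.0220). Whether such abundant transcripts share reads with near-identical copies was not examined, since the identifiers have no annotation here.

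**Figure D4:**
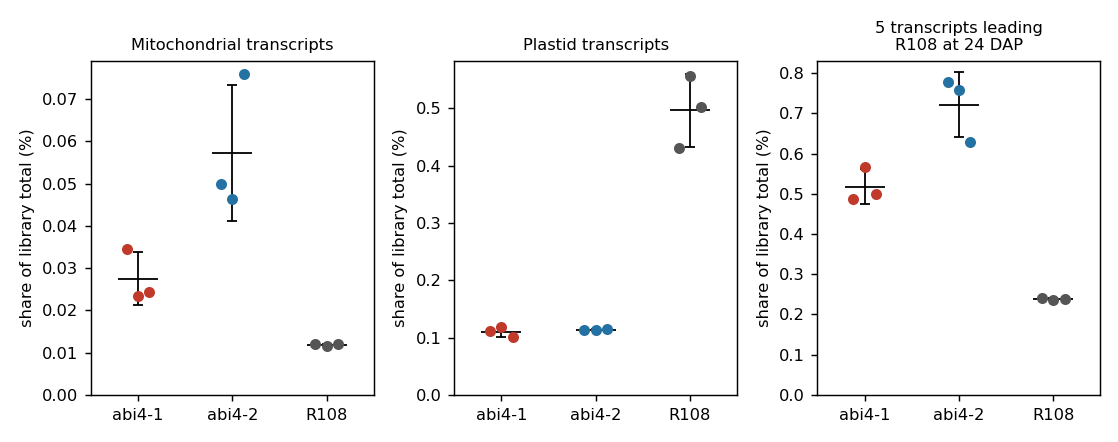
Share of the library total (percent, vertical axes from 0) in each library of mature abi4-1, abi4-2 and R108 seeds for the mitochondrial transcripts, the plastid transcripts and the 5 transcripts leading R108 at 24 DAP. Points are libraries, long bars the mean and whiskers the SD (n = 3), and the mutant lines separate in the outer panels and overlap in the plastid panel.

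Neighbouring identifiers called in the same direction were described as runs, with tested identifiers taken in the order of their numbers. In the nuclear genome the higher calls formed 155 runs of 2, 16 of 3 and 7 of 4 identifiers. The lower calls formed 124 runs of 2, 19 of 3 and 1 each of 4, 6 and 8. The run of 8, on chromosome 2, summed to 2929, 3622 and 1781 normalized counts in abi4-1, against 5479.5, 5734 and 4434 in abi4-2 and 1584, 1521 and 1507 in R108. All groups were apart, with abi4-2 highest and R108 lowest, and the log2 differences of its members ran from -1.93 to -0.45. Its most abundant member stood at 1066, 1464 and 610.2 in abi4-1, against 2308, 2383 and 1642 in abi4-2 and 439, 334 and 409 in R108. The order of the libraries differed from that of the mitochondrial sum, since abi4-2 replicate 3 was the lowest abi4-2 library in the run and the highest in the mitochondrial sum.

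The run of 6, on chromosome 4, holds MtrunA17_Chr4g0013381 and summed to 3305, 3741 and 2078 normalized counts in abi4-1, against 6034, 8283 and 4541 in abi4-2 and 1497, 1549 and 1512 in R108. Its member with the highest counts stood at 1302, 1870.4 and 464 in abi4-1, against 2996, 4524 and 2053 in abi4-2 and 21.98, 9.90 and 12.5 in R108 (-1.54 ± 0.41, limma adjusted p = 0.0256). Another stood at 94.8, 84.2 and 67.5 in abi4-1, against 318, 522 and 217 in abi4-2 and 4.18, 6.92 and 2.10 in R108 (-2.01 ± 0.25). Both sums ranked the libraries of each line alike, with replicate 2 highest and replicate 3 lowest. Leaving out a library gave a longest lower run of 3 to 6 identifiers, so no omission kept the run of 8 whole, and without the intensity trend the longest lower run was 3.

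Transcripts were also grouped by their profile in R108, using R108 libraries that include those of mature seeds for some lists but no mutant library. Lists held nuclear identifiers at least 4-fold apart between stages with groups that do not overlap, on a scale common to all 21 libraries. The list that was higher at 24 than at 13 DAP, transcripts gained during seed filling, had 1074 of its 1542 members tested. Of these, 259 were called higher in abi4-1 (24.1%, against 8.07% of all tested) and 80 lower (7.45%, against 7.37%), with a median log2 difference of 0.16. The reverse list, 13 over 24 DAP, had 606 of 2376 tested, with 80 called higher (13.2%), 32 called lower (5.28%) and a median difference of 0.01. Lower calls in the 2 lists were fewer without abi4-1 replicate 1 or 3 or abi4-2 replicate 1 or 2. They numbered 49, 51, 42 and 49 in the first list and 25, 19, 18 and 14 in the second. Lower calls over all identifiers fell as well, from 1395 to 856, 969, 722 and 859, so the loss was not particular to the lists. Without abi4-1 replicate 1 the reverse list had 51 higher, and 994 of all identifiers were higher. Without the intensity trend the first list had 136 higher and 29 lower, and the reverse list 47 and 19. The lists themselves depended on the scale. From the values as deposited the first had 135 higher (27.7% of 488 tested) and 39 lower (7.99%), and with a bound of 2-fold 436 higher (19.6% of 2223) and 141 lower (6.34%). The reverse list had 287 higher (7.14% of 4021) and 384 lower (9.55%) from the values as deposited, so its excess of higher calls turned round, and 167 higher (8.92% of 1873) and 164 lower (8.76%) at 2-fold.

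Lists set by maturity were near the background. Of the 3134 tested members gained between 24 DAP and maturity, 295 were called higher in abi4-1 (9.41%) and 257 lower (8.20%), and the median was -0.02. Of the 2850 tested members lost in that interval, 240 were called higher (8.42%) and 171 lower (6%), and the median was -0.0042. In the gained list 194 were higher and 166 lower without abi4-1 replicate 1, where all identifiers had 994 and 856. Its lower calls were 135 and 162 without abi4-2 replicate 1 or 2, where all identifiers had 722 and 859. In the lost list 134 were higher and 198 lower without abi4-1 replicate 2, so its excess of higher calls turned round. All identifiers then had 1221 higher and 1139 lower. With library weights the lost list had 276 higher and 300 lower, against 2042 and 1991 over all. Its lower calls were 86 to 110 without abi4-1 replicate 1 or 3 or abi4-2 replicate 1 or 2, where all identifiers had 722 to 969. Without the intensity trend all identifiers had 633 higher and 518 lower calls. In that fit the calls, higher and lower, were 131 and 75 in the gained list and 134 and 95 in the lost list. They were 558 and 467 of 6174, and 139 and 79 of 1587, with lists from the values as deposited, and 558 and 464 of 6140, and 394 and 322 of 4876, at 2-fold. In the list gained between 13 and 24 DAP the median deviation of each library from the mean of the 6 was 0.06, 0.22 and 0.01 in abi4-1, against -0.06, -0.07 and -0.12 in abi4-2. All abi4-1 libraries lay above all abi4-2 libraries, with abi4-1 replicate 2 furthest out, and without that replicate 214 members were called higher and the median was 0.10. Of the 5 leading transcripts at 24 DAP, the 4 that were called were lower in abi4-1, against 7.37% called lower over all identifiers tested.

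**Figure D5:**
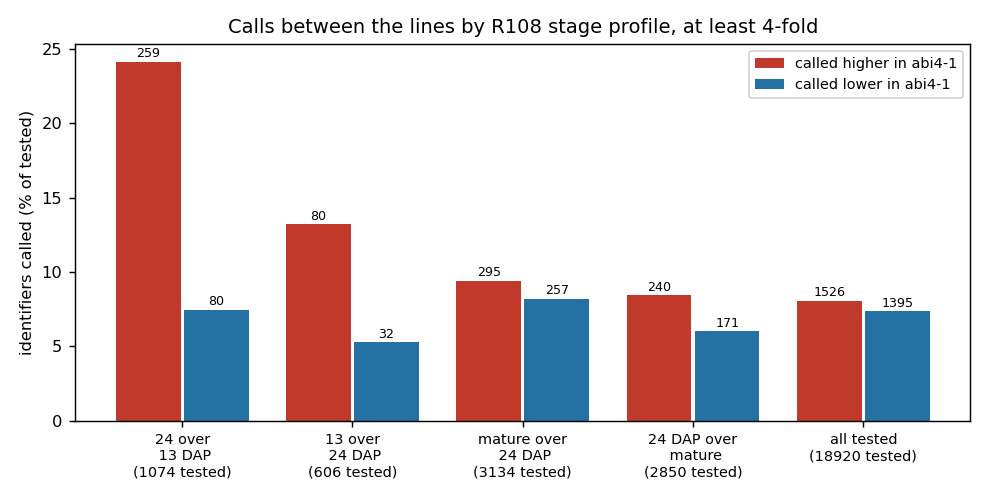
Identifiers called higher (red) or lower (blue) in abi4-1 as a percentage of those tested (vertical axis from 0) in 4 lists of nuclear identifiers defined by R108 stages and in all identifiers tested, with the number called above each bar. The list 24 over 13 DAP has 259 higher and 80 lower of 1074, against 1526 and 1395 of all 18920.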

How the data were processed

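Total RNA of seeds was enriched for mRNA, copied with random primers and sequenced on a BGISEQ-500, per the labels' protocols. The submitters' processing notes name Salmon (no version), with genome build, index and scaling tool not given in the sources used here. Values were deposited by the authors as FPKM, yet they are a signal that behaves like read counts divided by a library factor, with separate scaling for each stage; the value of 1 read was 0.977 to 1.03 in mature libraries, which gives 19609499 to 19780820 estimated reads. Fewer low values were whole multiples of it than a count model needs, so none was used, and levels are not per length.

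Samples were grouped and numbered by their labels, although the design text names lines of another gene; that text says that replicates were seeds of different plants, and if this does not hold, p-values cover only the spread among these samples. Replicate libraries differed by more than sampling noise (chi-square per identifier 2.66 to 9.83). The 6 mutant libraries were fitted by limma 3.58.1 (R 4.3.3) with its intensity trend on log2(value + 1), a pseudocount that understates differences of low transcripts; identifiers at 10 or more in at least 3 libraries were kept, and an adjusted p under 0.05 is a call. The script was tested on simulated data. Shares were tested with exact permutation tests. Identifiers carry no names in the files, 0 of 44473 matched the RefSeq gene table, and no sequence is shown. Named are the 2 nuclear identifiers per direction with the largest log2 difference among those called with groups that do not overlap and at 10 or more in each library of the higher line; other transcripts are described by chromosome and were picked after their values were seen. The comparison, lists and rules were chosen with earlier results of these data known. Alternatives covered the pseudocount, the filter, scaling, library weights, R108 in the fit, the trend, a replicate block, the bounds of the lists and each library left out.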

Additional observations from a re-analysis of the deposited data

How the results depend on the processing

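The medians of the mitochondrial transcripts and of the list 24 over 13 DAP, and the shares of the mitochondrial and the 5 leading transcripts, kept their direction under all alternatives run. The plastid median and share and the medians of the other 3 lists, all near 0, changed sign in some; for the list 13 over 24 DAP the median was -0.058 with lists from the values as deposited and -0.059 with lists at 2-fold. Without the intensity trend 633 identifiers were higher and 518 lower, 25 were at least 4-fold lower, and 8 mitochondrial transcripts were lower. The 4-fold counts, higher and lower, were 17 and 29 with a pseudocount of 5, 74 and 80 with no filter, and 7 and 12 with at least 10 in all 6 libraries. With bounds of 20 and 1 the transcripts present in 1 line numbered 2 and 0. Leaving out each library in turn gave 994 to 1272 higher and 722 to 1139 lower calls, 29 to 49 and 33 to 61 at least 4-fold, and 19 to 33 mitochondrial transcripts lower. Transcripts present in abi4-1 alone then numbered 10 to 17 and in abi4-2 alone 8 to 10, counts that an omission can only keep or raise. Lower calls were fewest without abi4-2 replicate 1 (722), and numbered 856 without abi4-1 replicate 1, which gave 994 higher, and 859 without abi4-2 replicate 2. The cause of these shifts was not tested, other than that fewer libraries enter. The replicate numbers were not taken as pairs: deviations of same-numbered libraries correlated at 0.03, 0.09 and 0.18, and with the number as a block 1430 identifiers were higher, 1345 lower and 34 mitochondrial transcripts lower. Low transcripts limit the precision of the 4-fold set.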
